A study of Mus musculus with 12 samples.

Results

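The ribosomal protein genes described here were all genes whose symbol, on probe sets that list 1 gene only, is Rpl or Rps followed by a number, with the P stalk proteins and the variants ending in a, x, l or l1. These were 47 of the 18193 genes on the array with such a probe set, 26 of the large ribosomal subunit and 21 of the small subunit. The rule used names, not measured values. Of the 47, 43 passed the filter on dim signals, among 11696 genes tested, and 4 did not: Rpl39l, Rpl3l, Rps16 and Rps4l. Expression was measured on 12 one-colour arrays, with 2 per condition and 6 conditions, all of mouse lines. The HAFTL line, derived from fetal liver and transformed by the oncogene Ha-ras, was given beta-estradiol and is named in the series design as a control. C10, a line that carries C/EBPα, a transcription factor of myeloid cells, in an inducible form, received beta-estradiol for 3, 12, 24 or 48 h or the vehicle ethanol. The time of treatment is not given for HAFTL or for vehicle C10, and vehicle C10 carries the inducible factor as well. Each condition rests on 1 cell line, and no label states whether the duplicates were grown apart, so the p-values cover the spread of these arrays only, and that spread may be technical.

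Cytosolic ribosomes are built from ribosomal RNA and a set of proteins named RPL for the large and RPS for the small subunit, most of which are normally needed in equal copy number. Their genes are among the most strongly transcribed in dividing cells, and their mRNAs usually begin with a run of pyrimidines, the terminal oligopyrimidine or TOP motif, through which mTOR signalling controls their translation. Some ribosomal proteins have further roles: RPL5 and RPL11 bind MDM2 when ribosome assembly fails, and RPS6 is the substrate of the S6 kinases. Several genes have a paralogue, such as Rpl22l1 beside Rpl22, and many have processed pseudogenes, which makes their probe sets hard to assign.

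The letters at the annotated start are shown for the 5 genes with the largest falls at 48 h and then for 4 genes that were not called at any time, picked with their values known, to set the TOP-like starts of both kinds side by side. Each window runs from 10 bases before to 20 bases after the start annotated by RefSeq (GRCm38.p6), 5′ to 3′ on the strand of the gene, and capitals mark a run of C and T letters that begins with C within 10 bases of the start. For Rpl38 the start used lies inside the annotated gene, which begins at chr11:114667818. For the others it is the 5′ end of the annotated gene.
Rpl12, chr2:32961702-32961731, plus strand: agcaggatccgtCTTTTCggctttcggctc
Rpl22l1, chr3:28805498-28805527, plus strand: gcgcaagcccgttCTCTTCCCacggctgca
Rpl14, chr9:120571507-120571536, plus strand: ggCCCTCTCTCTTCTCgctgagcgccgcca
Rps6, chr4:86857348-86857377, minus strand: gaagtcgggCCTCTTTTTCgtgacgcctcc
Rps25, chr9:44407704-44407733, plus strand: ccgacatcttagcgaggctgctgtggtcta
Rplp0, chr5:115559457-115559486, plus strand: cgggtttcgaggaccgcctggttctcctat
Rplp2, chr7:141447641-141447670, plus strand: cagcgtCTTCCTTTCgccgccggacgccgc
Rps10, chr17:27635225-27635254, minus strand: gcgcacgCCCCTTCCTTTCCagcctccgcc
Rpl38, chr11:114668570-114668599, plus strand: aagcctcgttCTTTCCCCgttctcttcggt
Such a run of at least 5 letters was present in 4 of these 5 lowered genes and in 3 of the 4 genes not called.

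Over all ribosomal protein genes, 41 of 47 matched the RefSeq promoter table by symbol, with windows of 300 bases, 250 before and 50 after the start. A pyrimidine run at the start was found in 27 of the 41 (65.9%), against 33.3% of the 27025 genes in the table. The ETS core TTCCGG, the core sequence bound by GABP, stood on either strand in 26 of the 41 (63.4%), against 16.7% of all genes. The SP1 letters GGGCGG were found in 23 (56.1%, against 38.2%), the YY1 letters AAGATGGC in 4 (9.76%, against 3.19%), and the C/EBP letters TTGCNNAA in 3 (7.32%, against 12.2%). Of the genes lower at 48 h, 12 of 19 held a pyrimidine run, 14 of 19 the ETS core, 9 of 19 the SP1 letters, 1 of 19 the YY1 letters and 2 of 19 the C/EBP letters. Of those tested and not called there, 13 of 19 held a pyrimidine run, 11 of 19 the ETS core, 13 of 19 the SP1 letters, 3 of 19 the YY1 letters and 1 of 19 the C/EBP letters. These matches describe letters in a window and were not tested.

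Ribosomal protein genes were called lower and not higher. At 48 h, 21 of the 43 tested were lower than in vehicle C10 and 0 were higher, in limma's moderated test at an adjusted p below 0.05. Of all genes tested, 38.2% were called lower and 24.2% higher in the same comparison. In this fit the share called lower was thus above the background by a modest amount, and no ribosomal protein gene was called higher. With a minimum change of 0.5 the share was below the background, with 6 of 43 lower against 3790 of 11696 genes. None of these differences from the background was tested. At an unadjusted p below 0.05, 0 were higher too, here and at each earlier time, in HAFTL and between successive times. In 10 of the 43, both 48 h arrays lay above both vehicle arrays without a call. Over all 11696 genes, called or not, the arrays lay so in 3839. The median change of the 43 genes was -0.19 on the log2 scale, equal to the median of -0.19 over all genes after quantile normalisation. On the deposited values it was -0.31 against -0.20 over all genes, and with each array centred on its median -0.35 against -0.245. With the probe sets of a gene averaged it was -0.29 against -0.14. The ribosomal protein genes fell less with a filter at the 70th percentile (-0.17 against -0.23) and with HAFTL as the control (-0.17 against -0.19). Earlier falls were fewer: 7 genes were lower at 3 h (27.3% of all genes), 8 at 12 h (28.7%) and 8 at 24 h (33.3%), and no ribosomal protein gene was higher at these times (20.9%, 22.3% and 24.2% of all genes). Every one of these counts lies below its background share, and the median changes were -0.02, -0.04 and -0.07 at 3, 12 and 24 h, against -0.06, -0.08 and -0.13 over all genes. On the deposited values these medians were -0.17, -0.16 and -0.12, against -0.13, -0.12 and -0.16 over all genes. The 4 comparisons share the vehicle arrays. Scaled to spike-in probe sets, 0, 0, 1 and 4 genes were lower at 3, 12, 24 and 48 h, and 0 were higher. Of the 11999 genes tested with that scaling, 412, 406, 816 and 1019 were lower at these times, and 2008, 2359, 1442 and 2498 higher. Without the first or the second vehicle array, or the first 3 h array, fewer ribosomal protein genes were lower at 3 h, as were fewer of all genes. The counts of 0 higher depended on the prior: with a spread that follows the signal level, 2, 5 and 4 genes were higher at 12, 24 and 48 h. Of all 11696 genes, 2737, 2959 and 2911 were higher with that prior.

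At 48 h, 11 of 24 tested large subunit genes and 10 of 19 small subunit genes were lower, against 38.2% of all genes. A total of 7 genes were lower at all 4 times (Rpl12, Rpl14, Rpl22l1, Rpl37, Rpl7l1, Rps18 and Rps6), Rps25 was lower at 3 of them, 13 were lower at 48 h alone, and 22 at no time. How many of all genes were lower at several times was not counted. In the moderated F test over the C10 groups, 17 of the 43 differed, against 76% of all genes.

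**Figure D1:**
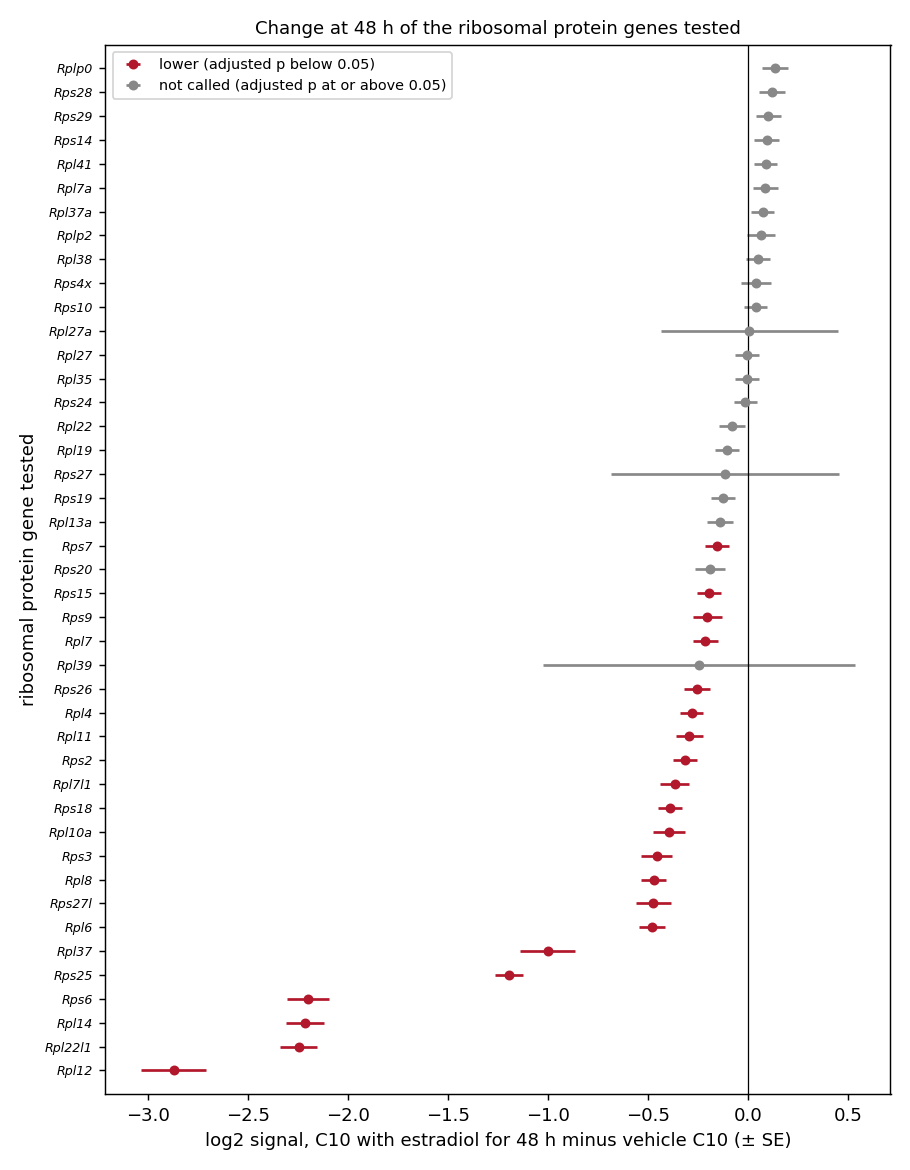
Log2 change (± SE) of each of the 43 tested ribosomal protein genes, C10 with estradiol for 48 h minus vehicle C10, sorted by size, with genes called lower in red and genes not called in grey. A group of 6 genes from Rpl12 (-2.87) to Rpl37 (-1.0) lies apart from the other 15 called genes, which fell by 0.48 or less, and no gene was called higher on these quantile-normalised values.

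The strongest falls were seen for Rpl12, whose protein helps to form the base of the ribosomal stalk. Its signal was 2139 and 2091 in vehicle C10, 1275 and 1193 after 3 h, 746 and 777 after 12 h, 502 and 373 after 24 h, and 330 and 253 after 48 h. Both arrays of each time lay below both arrays of the time before. The log2 change against vehicle was -0.78 ± 0.16 at 3 h (adjusted p = 0.0054) and -2.87 ± 0.16 at 48 h (SE, adjusted p = 2.6e-06), a 7.32-fold fall. Rpl12 was also lower in each step, by 0.70, 0.81 and 0.58 on the log2 scale.

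Rpl14, a large subunit protein, followed a like course. Its signal was 2451 and 2340 in vehicle C10, 1831 and 1974 after 3 h, 1375 and 1266 after 12 h, 1100 and 967 after 24 h, and 531 and 502 after 48 h, again without overlap between successive times. The change at 48 h was -2.21 ± 0.10 (adjusted p = 6.3e-07). It was the only ribosomal protein gene called in HAFTL, where signals of 1643 and 1507 lay below both vehicle arrays (change -0.61 ± 0.10, adjusted p = 0.0066). In that comparison 8.12% of all genes were lower and 7.11% higher, and the median change of the ribosomal protein genes was -0.01, against -0.003 over all genes. With HAFTL in place of vehicle C10 as the control, the 3 h change of Rpl14 turned round, to 0.27.

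Rps6, the S6 kinase substrate of the small subunit, read 7740 and 7428 in vehicle C10, 4616 and 4555 after 3 h, 3762 and 3885 after 12 h, 3486 and 3418 after 24 h, and 1469 and 1847 after 48 h. It had already fallen by 0.73 ± 0.10 at 3 h (adjusted p = 8.9e-04, but a change of 0.14 on arrays scaled to the spike-ins), was not called in the steps from 3 to 12 h and from 12 to 24 h, and fell by 1.07 between 24 and 48 h. HAFTL signals of 6544 and 6794 lay below both vehicle arrays, and the difference was not called. The change at 48 h was -2.20 ± 0.10 (adjusted p = 1.1e-06).

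Rps25, a small subunit protein that internal ribosome entry sites depend on, fell more slowly. Signals were 3330 and 3233 in vehicle C10, 2968 and 2819 after 3 h, 2405 and 2468 after 12 h, 1984 and 2041 after 24 h, and 1385 and 1482 after 48 h. The 3 h arrays lay below both vehicle arrays without a call, and the change reached -1.20 ± 0.07 at 48 h (adjusted p = 2.8e-06). Rpl37, a zinc-binding protein of the large subunit, read 5231 and 6097 at 48 h, against 10791 and 11856 in vehicle C10, with a change of -1.0 ± 0.14 (adjusted p = 4.2e-04). Its duplicates at 3 h, 7177 and 9419, overlapped the arrays at 12 and 24 h, and its 3 h change of -0.46 was -0.26 without the first 3 h array and 0.44 when scaled to the spike-ins.

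Both genes of a paralogue pair were tested in 3 pairs. Rpl22l1 encodes a paralogue of RPL22 that, in mouse, RPL22 represses. Rpl22l1 signals were 26349 and 27196 in vehicle C10, 22031 and 19711 after 3 h, 17440 and 19438 after 12 h, 14648 and 14549 after 24 h, and 5619 and 5664 after 48 h. The largest step was the last one, -1.37 ± 0.09 between 24 and 48 h, and the change at 48 h against vehicle was -2.25 ± 0.09 (adjusted p = 5.2e-07). Rpl22 itself read 34560 and 36181 at 48 h on its brightest probe set, against 36886 and 37717 in vehicle C10, and was not called (-0.08 ± 0.07). That probe set did not stand for all of the gene's readings: 2 other Rpl22 probe sets, singled out after their values were seen, changed at 48 h by -1.10 and -1.79 on the log2 scale. Rps27l, a paralogue of Rps27 known as a p53 target in human cells, was lower at 48 h (9601 and 9987, against 12955 and 14236 in vehicle C10, change -0.47 ± 0.09, adjusted p = 0.0021, and a change of 0.34 when scaled to the spike-ins). Rps27 was not called (870 and 365 at 48 h, against 513 and 726), and its duplicates differ too widely for a comparison. Rpl7l1, a paralogue of Rpl7 with a role in ribosome assembly, changed by -0.31 at 3 h and -0.32 at 12 h (0.45 and 0.41 when scaled to the spike-ins), and by -0.37 ± 0.07 at 48 h (2195 and 2159, against 2798 and 2812 in vehicle C10, adjusted p = 0.0032, and a change of 0.21 when scaled to the spike-ins). Rpl7 was lower at 48 h alone (-0.21 ± 0.06, adjusted p = 0.019, and a change of 0.22 when scaled to the spike-ins). Rpl39l and Rpl3l were at most 91.0 in any array and were not tested. Rpl39 was not called, on a probe set that read between 57.5 and 315.2. By contrast, probe sets that list Rpl39 or Rps27 with other genes read at least 35769 and 28707. They changed by 0.08 and -0.24 at 48 h and were not called.

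**Figure D2:**
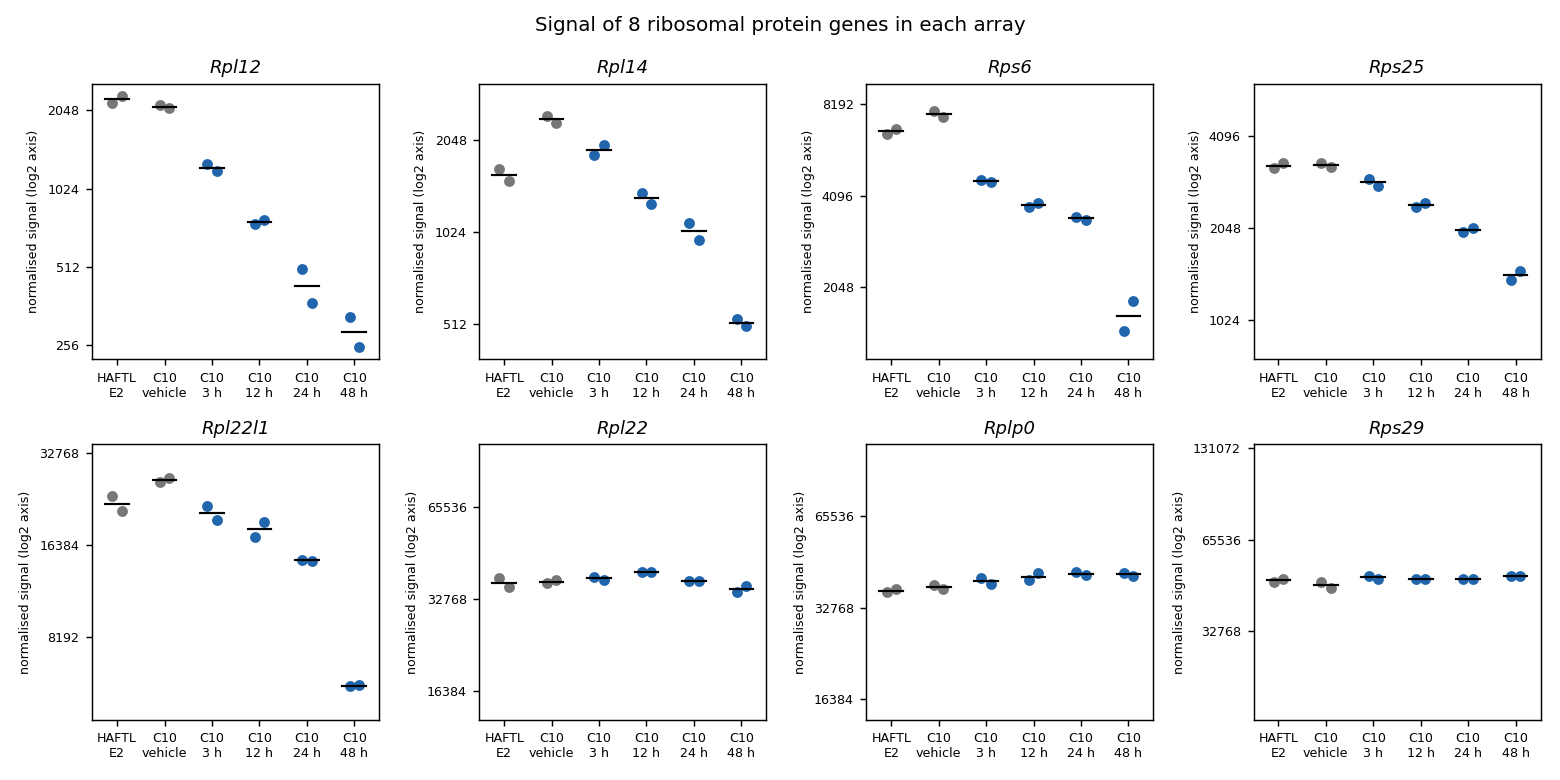
Quantile-normalised signal (log2 axis, separate range in each panel) of 8 ribosomal protein genes on their brightest probe set, with 2 points for the 2 arrays of each condition and a bar at their geometric mean. Rpl12, Rpl14, Rps6, Rps25 and Rpl22l1 step down from vehicle C10 to 48 h, while Rpl22, Rplp0 and Rps29 stay within a narrow range.

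The other genes lower at 48 h changed by smaller amounts, between -0.15 and -0.48. Rpl6 (22839 and 24531 at 48 h, against 32921 and 33113 in vehicle C10, change -0.48 ± 0.07, adjusted p = 3.8e-04) and Rpl8 (21745 and 21429, against 30198 and 29619, change -0.47 ± 0.06) are large subunit proteins, and changed by 0.05 and 0.17 when scaled to the spike-ins. Rps3, a small subunit protein at the mRNA entry channel that also acts in DNA repair, read 22281 and 25358 at 48 h, against 32188 and 33034 in vehicle C10 (change -0.46 ± 0.08, adjusted p = 0.0013, and a change of 0.08 when scaled to the spike-ins). In each of these 3 genes both 48 h arrays lay below both vehicle arrays. Rpl11, the MDM2 binding protein, fell by 0.29 ± 0.07 at 48 h (25512 and 24617, against 30635 and 30745, adjusted p = 0.0057), and changed by 0.26 on arrays scaled to the spike-ins. Rps18 was called at 3 h already, with a change of -0.19 there and of -0.39 at 48 h, against 0.35 and 0.007 when scaled to the spike-ins, and 0.14 at 3 h when its probe sets were averaged.

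Genes that were not called included the P stalk proteins that recruit elongation factors. Rplp0, often used as a reference gene, read 42538 and 41707 at 48 h, against 38806 and 37764 in vehicle C10, a change of 0.14 ± 0.07 that did not pass. Both 48 h arrays lay above both vehicle arrays, but on the deposited values without quantile normalisation the change was -0.04, so no direction can be given. Rplp2 behaved alike (42849 and 44546, against 41155 and 42342, 0.07 ± 0.07, and -0.10 without quantile normalisation). Rps19, mutated in Diamond-Blackfan anaemia, read 35870 and 35769 at 48 h, against 38063 and 39950 (-0.12 ± 0.06, not called). Rpl13a, of the large subunit, read 45627 and 44942, against 49902 in both vehicle arrays (-0.14 ± 0.07, not called). That is its brightest probe set, and the 3 others had a median change of -1.08 at 48 h. Rpl5 and Rplp1 were listed only on probe sets that name several genes, as were Rpl3 and Rpl10.

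The share of ribosomal protein genes called lower varied with the level of their probe sets. With the level taken as the mean over all 12 arrays, 24 genes had a mean log2 signal above 15, of which 5 were lower at 48 h, with a median change of -0.004. Of 12 genes with a mean between 12 and 15, 12 were lower, with a median of -0.46. The remaining 7 tested genes were dimmer, and 4 of them were lower. That mean includes the 48 h arrays, so a fall can itself move a gene into a lower class. Classed by the HAFTL arrays, which are not in the comparison, 7 of 26 genes above 15 were lower (median -0.009) and 10 of 10 between 12 and 15 (median -0.46). Vehicle C10 arrays gave the same counts. Among genes of neither ribosomal list, classed by HAFTL, 60.8% of 1075 between 12 and 15 were lower and 20.9% higher. Above 15 there were 4 such genes, all 4 called higher and none lower. The differences between the classes were not tested.

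Probe sets of one gene differed as well. Among 21 ribosomal protein genes with more than 1 tested probe set, the dimmer probe sets had the lower median change at 48 h in 15. For Rps3, a second probe set read 785 and 821 at 48 h, against 3575 and 2941 in vehicle C10, a change of -2.01 ± 0.11, where the brightest changed by -0.46. For Rps20, of the small subunit, a dimmer probe set read 102 and 71, against 477 and 536 (-2.58 ± 0.26), while the brightest was not called (-0.19). One Rpl41 probe set read 537 and 504, against 1868 and 1505 (-1.69 ± 0.17), while the brightest changed by 0.09, and by -0.09 on the deposited values. One Rpl13a probe set read 6919 and 6819, against 20195 and 21095 (-1.59 ± 0.08). These 4 genes were picked after their values were seen. In each the 2 conditions were further apart on the dimmer probe set. The opposite held for Rps6, whose second probe set, at 70 and 51 against 73 and 60, lay near the filter level of 74.6. Counting every tested probe set that lists 1 of the genes alone, 41 of 95 were lower at 48 h and 0 higher, where 30.0% of all 26524 probe sets tested were lower and 25.5% higher.

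**Figure D3:**
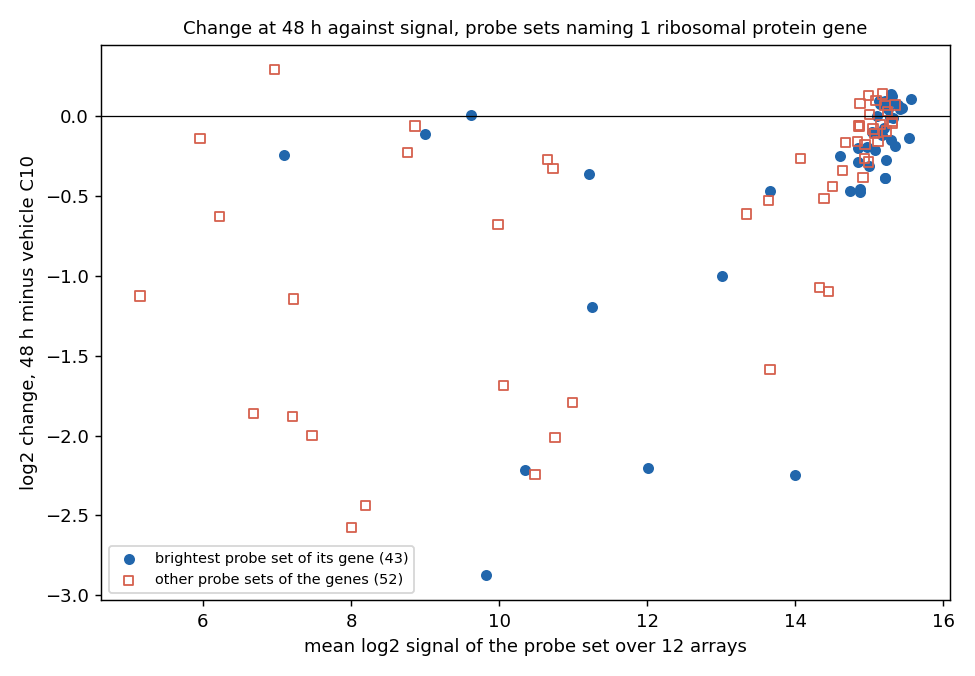
Log2 change at 48 h against vehicle C10, plotted over the mean log2 signal, for 43 brightest probe sets (filled circles) and 52 other tested probe sets (open squares) that list 1 ribosomal protein gene alone. Probe sets with a mean above 15 crowd near 0, and falls of more than 1 lie at lower signals.

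Probe sets that list a ribosomal protein gene together with other genes, many of them named as pseudogenes, were not used to name genes but bear on the largest falls. For Rpl12, 2 such probe sets with signals between 20464 and 44942 changed by -0.56 and -0.44 at 48 h, against -2.87 on the probe set listing Rpl12 alone. For Rpl14, 5 such probe sets changed by between -1.05 and -0.85, against -2.21, and for Rps25 the 1 such probe set changed by -0.61, against -1.20. These 8 were all called lower. For Rps6, 9 such probe sets changed by between -0.99 and 0.20, with 4 called lower, against -2.20. The direction was thus shared for Rpl12, Rpl14 and Rps25, and the size was not. Rps16, untested because its own probe set read at most 36.8, appears on 2 such probe sets with signals of at least 33573. These changed by -0.17 and 0.23 at 48 h, and the latter was called higher. In all, 52 of 107 tested probe sets of this kind were lower at 48 h and 2 higher, with a median of -0.29, against -0.06 over all probe sets, of which 30.0% were lower and 25.5% higher. Whether the level of a probe set near the top of the signal range, or probes shared with pseudogenes, set the size of these changes was not tested.

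Seen by rank, ribosomal protein probe sets lost ground among the brightest of the array. Counting probe sets that list a gene of the symbol pattern, alone or with others, 83 of the 100 brightest were of this kind in each HAFTL array and 84 in each vehicle C10 array. The number was 81 and 84 after 3 h, 81 in both arrays at 12 h, 77 in both at 24 h, and 66 and 63 after 48 h. A total of 25 probe sets were among the 100 brightest in both vehicle arrays and in neither 48 h array. Of these, 20 list a gene of the symbol pattern, near the share of 84 in 100 that this kind held in vehicle C10. Of the other 5, 1 lists Rpsa, also a ribosomal protein, and 4 have no gene symbol in the annotation. Their places were taken by 24 probe sets, of which 3 list a gene of the pattern. Those of the lysozymes Lyz1 and Lyz2, of the elastase Mmp12, and of B2m were among the 24. As a share of the summed deposited signal, ribosomal protein probe sets made up 15.3% and 14.4% in vehicle C10, 13.0% and 13.1% after 3 h, 13.3% and 13.0% after 12 h, 13.3% and 13.1% after 24 h, and 12.4% and 11.3% after 48 h. The share was thus already below both vehicle arrays at 3 h, where the count among the 100 brightest was 81 and 84, and the 48 h arrays lay below those of every other time. In HAFTL it was 15.7% and 14.4%.

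**Figure D4:**
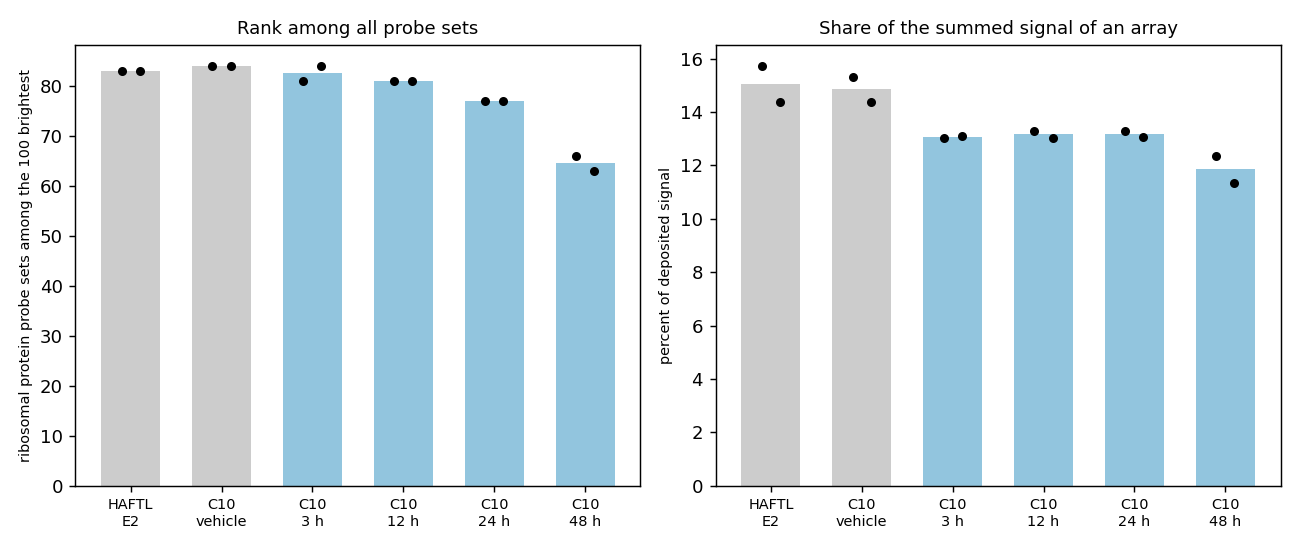
Number of ribosomal protein probe sets among the 100 brightest of each array (left) and their percent of the summed deposited signal (right), with a point per array and a bar at the mean of 2. Both 48 h arrays lie below all other arrays in each panel.

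Between successive times, 3 ribosomal protein genes were lower at 12 h than at 3 h (16.6% of all genes), namely Rpl12, Rpl14 and Rps25. A total of 5 were lower at 24 h than at 12 h (23.1% of all genes), Rpl22l1 and Rps27l joining those 3. From 24 h to 48 h, 12 were lower (17.9% of all genes), led by Rpl22l1 (-1.37), Rps6 (-1.07) and Rpl14 (-1.0). None was higher in any step, where 16.6%, 22.3% and 9.47% of all genes were. These step counts fell in the first step without the first 3 h array or either 12 h array. In the second they fell without any 1 of the 12 h and 24 h arrays, and in the last without the first 24 h array. The counts of lower genes over all genes fell in the same runs, each of which leaves 1 array in a condition.

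Ribosomal proteins whose symbols fall outside the rule moved in the same range. Rpsa, a small subunit protein known also as a laminin receptor, read 29304 and 27093 at 48 h, against 43181 and 44207 in vehicle C10 (-0.63 ± 0.07, adjusted p = 7.6e-05). Rps3a1 changed by -0.31 ± 0.06 (adjusted p = 0.0026, and a change of 0.12 when scaled to the spike-ins), and Fau, which encodes RPS30 fused to a ubiquitin-like protein, was not called. Genes that build ribosomes had larger changes. Of 27 ribosome assembly genes tested, 24 were lower at 48 h and 0 higher (38.2% and 24.2% of all genes), with a median of -1.79. The largest changes were those of Dkc1, the pseudouridine synthase (-3.71), Polr1b, a subunit of RNA polymerase I (-3.34), and Wdr12 (-2.95). At 3 h 6 of the 27 were higher and 8 lower (20.9% and 27.3% of all genes). All 7 snoRNA host genes tested, whose spliced transcripts are mostly TOP mRNAs, were lower at 48 h (median -2.48), with Snhg12 at -3.57, Snhg5 at -3.49 and Snhg3 at -2.55.

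At 48 h, 38.2% of all genes were lower and 24.2% higher. Other TOP mRNA genes were lower in 13 of 15 and higher in 2 at 48 h (median -0.94), among them Nap1l1 (-2.25), Npm1 (-2.00) and Btf3 (-1.85). Npm1 is counted among the ribosome assembly genes as well. Mitochondrial ribosomal protein genes, whose products translate in the mitochondrion, were lower in 65 of 76 and higher in 4 at 48 h (median -0.75), led by Mrpl15 (-2.13), Mrpl12 (-2.04) and Mrps18b (-1.99). At 3 h 26 of those 76 had been higher and 18 lower (20.9% and 27.3% of all genes), whereas no cytosolic ribosomal protein gene was called higher. Differences between these lists and the cytosolic ribosomal protein genes were not tested, and the ribosomal protein probe sets are brighter than those of most other genes.

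**Figure D5:**
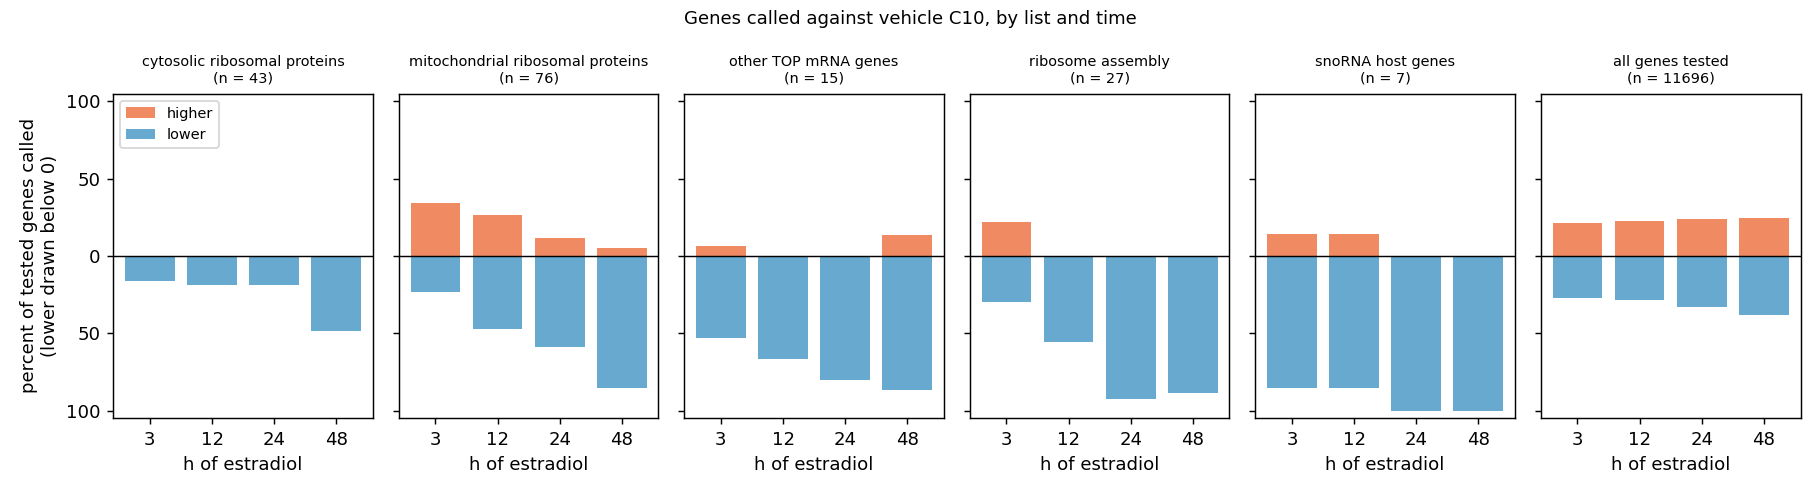
Percent of tested genes called higher (above 0) and lower (drawn below 0) than vehicle C10 after 3, 12, 24 and 48 h of estradiol, for cytosolic ribosomal proteins (43), 4 related lists and all 11696 genes tested. On these quantile-normalised values no cytosolic ribosomal protein gene is called higher, and the related lists reach larger shares of lower genes at 48 h.

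At 48 h, 38.2% of all genes tested were lower and 24.2% higher, and the lists of regulators that follow were not tested against these shares. Among regulators, 13 of 22 genes of translation initiation and mTOR control were lower at 48 h and 3 higher. They included Mtor (-2.29), Larp4 (-1.68) and Eif2ak2, the RNA-activated kinase that inhibits initiation (3.00). Of 9 factors that bind ribosomal protein promoters or drive ribosome production, 6 were lower and 2 higher, with Myc at -1.77, Tbpl1 at -1.59 and Gabpb1, a subunit of GABP, at -1.54. Of 7 genes of the p53 and MDM2 pathway, 3 were higher at 48 h, Cdkn1a (2.78), Sesn2 (1.11) and Mdm2 (0.87), and 1 was lower. At 3 h 6 of these 7 were lower and 0 higher (27.3% and 20.9% of all genes), with Cdkn1a at -1.69 and Sesn2 at -0.48.

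Markers of cell identity changed over the same time course. The 8 macrophage markers summed to a signal of 116768 and 116685 at 48 h, against 1290 and 1359 in vehicle C10, with 7 of 8 higher. The 9 B lineage markers summed to 18132 and 19760, against 107294 and 105904, with all 9 lower at each time. At 3 h the B lineage sum was already 36466 and 35479. The macrophage sum was 8886 and 8643 at 12 h, and 85039 and 84105 at 24 h. Of markers of other cell types, at most 1 of 7 T and NK, 2 of 4 erythroid and 2 of 7 stroma genes exceeded the filter level in any array. The Actb 5′ to 3′ signal ratio, a measure of RNA integrity, was between 0.746 and 0.848 in C10 with estradiol, 0.691 and 0.74 in HAFTL, and 0.582 and 0.638 in vehicle C10. The same ratio for Gapdh did not set vehicle C10 apart. It was 1.194 and 1.15 there, between 1.135 and 1.315 in C10 with estradiol, and 1.366 and 1.282 in HAFTL. The mean log2 signal of the 24 spike-in probe sets was 8.18 and 7.14 at 48 h, against 8.41 and 8.10 in vehicle C10. With scaling to them, the count of 4 genes lower at 48 h came with a median of 0.28 beside one of 0.41 over all genes. The part of each of these in the ribosomal protein results was not tested, and with bulk RNA a change in the share of cells and a change per cell cannot be told apart.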

How the data were processed

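RNA from 12 samples, extracted with Trizol and labelled with biotin per the labels, was measured on one-colour arrays. The deposited intensities are linear signals per probe set. How they were summarised and scaled is not given in the sources used here. The deposited median intensity ranged from 68.5 to 85.0 per array, and the number of arrays limits the precision. Log2 values were quantile-normalised over 45101 probe sets, 64 control probe sets were dropped, and a floor of 16 was applied. Of the probe sets, 34945 listed a single gene, 932 several and 9160 none, by the platform annotation, and 34741 of the single genes were found in RefSeq of GRCm38.p6 by gene ID. Each gene was represented by its brightest probe set by mean, and tested if above log2 6.22, the median of all values, in at least 2 arrays.

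Groups came from the sample titles. limma (3.58.1) in R (4.3.3) fitted 1 mean per group to 12 arrays, with 6 residual and 1.53 prior degrees of freedom, two-sided, with Benjamini-Hochberg adjustment over 11696 genes; the fit was tested on simulated data. The script for promoters ran in Python (3.11.15). Same-numbered arrays did not deviate together (correlations of deviations between -0.034 and 0.042), so the numbers were not used.

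Named were the 5 largest falls and rises called per time against vehicle, 3 for other comparisons, fixed genes and paralogue pairs, and up to 3 genes per list with the largest change at 48 h. Rpl6, Rpl8, Rps18, Rps20 and Rpl41 were named after their values were seen. The ribosomal protein genes and the lists were chosen with earlier results of these data known. Alternatives covered scaling, filter, floor, probe set, prior, samples, block, threshold, control and leaving out each array. The dimmest probe set above the filter level and level classes by vehicle or HAFTL arrays were added after the data were seen.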

Additional observations from a re-analysis of the deposited data

How the results depend on the processing

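The count of 21 ribosomal protein genes lower at 48 h stood at 25 on the deposited values, with arrays centred on their median and with a prior that follows intensity, at 24 when the probe sets of a gene were averaged, at 20 with the dimmest probe set, and at 14 with only the groups compared. Of all genes tested, 4527 of 11741 were lower on the deposited values, 4598 of 11698 with centring and 4537 of 11696 with that prior. Averaged probe sets gave 3784 of 10749, the dimmest probe set 3155 of 11726, and only the groups compared 4022 of 11696. With the replicate number as a block the count of ribosomal protein genes was 20, and the block changed no call count by more than 1.5 times, although the numbers do not pair the arrays. The results that moved further are these, with the time against vehicle C10 or the step in parentheses; beside scaling, whose construction sets the shift, the cause was not tested. On the deposited values without quantile normalisation, genes lower numbered 3 (24 h against 12 h), the median was -0.17 (3 h), -0.16 (12 h), -0.12 (24 h), -0.31 (48 h) and 0.006 (HAFTL), and the sign turned for Rplp0 (-0.035, 48 h), Rplp2 (-0.10, 48 h), Fau (-0.12, 48 h) and Rpl41 (-0.087, 48 h). With each array centred on its median, genes lower numbered 2 (3 h) and 3 (24 h against 12 h), genes higher numbered 1 (3 h), the median was -0.049 (3 h), -0.12 (12 h), -0.12 (24 h), -0.35 (48 h) and -0.12 (HAFTL), and the sign turned for Rplp0 (-0.078, 48 h), Rplp2 (-0.15, 48 h), Fau (-0.17, 48 h) and Rpl41 (-0.13, 48 h). Scaled to the spike-in probe sets, genes lower numbered 0 (3 h), 0 (12 h), 1 (24 h), 4 (48 h), 0 (HAFTL), 0 (12 h against 3 h), 0 (24 h against 12 h) and 0 (48 h against 24 h), the median was 0.56 (3 h), 0.58 (12 h), 0.20 (24 h), 0.28 (48 h) and 0.029 (HAFTL), 4 genes differed among the C10 groups, and the sign turned for Rps6 (0.14, 3 h), Rpl37 (0.44, 3 h), Rpl22l1 (0.35, 3 h), Rpl14 (0.42, 3 h), Rps18 (0.35, 3 h), Rpl7l1 (0.45, 3 h), Rpl37 (0.32, 12 h), Rpl22l1 (0.23, 12 h), Rpl7l1 (0.41, 12 h), Rpl11 (0.26, 48 h), Rpl13a (0.28, 48 h), Rps3 (0.083, 48 h), Rps19 (0.26, 48 h), Rpl22 (0.30, 48 h), Rps27 (0.41, 48 h), Rps27l (0.34, 48 h), Rpl39 (0.35, 48 h), Rpl7 (0.22, 48 h), Rpl7l1 (0.21, 48 h), Rps3a1 (0.12, 48 h), Rpl6 (0.052, 48 h), Rpl8 (0.17, 48 h), Rps18 (0.007, 48 h) and Rps20 (0.23, 48 h). Without a filter, genes higher numbered 1 (12 h), the median was 0.000 (3 h), -0.15 (48 h) and -0.001 (HAFTL). With the mean of the probe sets of a gene, genes lower numbered 14 (24 h) and 6 (12 h against 3 h), the median was -0.039 (3 h), -0.097 (12 h), -0.11 (24 h), -0.29 (48 h) and -0.001 (HAFTL), and the sign turned for Rps18 (0.14, 3 h), Rpl41 (-1.03, 48 h) and Rps6 (0.19, 48 h against 24 h). With the brightest probe set not of the x or s type, genes lower numbered 5 (12 h against 3 h), the median was -0.035 (3 h), -0.085 (12 h), -0.11 (24 h) and -0.26 (48 h), and the sign turned for Rpl41 (-1.69, 48 h). With the dimmest probe set above the filter level, genes lower numbered 13 (24 h), 5 (12 h against 3 h) and 7 (48 h against 24 h), genes higher numbered 1 (3 h) and 1 (48 h against 24 h), the median was -0.039 (3 h), -0.090 (12 h), -0.15 (24 h), -0.28 (48 h) and -0.001 (HAFTL), and the sign turned for Rps6 (0.37, 3 h), Rps18 (0.22, 3 h), Rps6 (0.14, 12 h), Rpl41 (-1.69, 48 h) and Rps6 (1.45, 48 h against 24 h). With only the groups compared in the fit, genes lower numbered 2 (3 h), 0 (HAFTL), 1 (24 h against 12 h) and 3 (48 h against 24 h). With a prior that follows intensity, genes lower numbered 13 (12 h), 14 (24 h), 2 (HAFTL) and 5 (12 h against 3 h), genes higher numbered 2 (12 h), 5 (24 h) and 4 (48 h). With a minimum change of 0.5, genes lower numbered 2 (3 h), 5 (12 h), 6 (48 h), 1 (24 h against 12 h) and 4 (48 h against 24 h). With HAFTL as the control, genes higher numbered 1 (3 h), 2 (24 h) and 2 (48 h), the median was -0.008 (3 h) and -0.058 (24 h), and the sign turned for Rpl14 (0.27, 3 h). Leaving out each array in turn gave genes lower of 3 to 7 (3 h), 7 to 8 (12 h), 8 to 9 (24 h), 17 to 21 (48 h), 1 (HAFTL), 1 to 4 (12 h against 3 h), 2 to 5 (24 h against 12 h) and 7 to 12 (48 h against 24 h), 0 genes higher throughout, medians of -0.033 to -0.009 (3 h), -0.043 to -0.026 (12 h), -0.091 to -0.034 (24 h), -0.21 to -0.15 (48 h) and -0.007 to 0.000 (HAFTL), and 14 to 16 genes differing among the C10 groups. Signs turned for Rps27 (0.14, without C10 vehicle array 2), Rpl39 (0.21, without C10 48 h array 1) and Rps27 (0.51, without C10 48 h array 2), all at 48 h and not called, with lowest values of -0.74 for Rps27 and -0.71 for Rpl39. Calls lost without some array were those of Rpl37, Rpl14, Rpl22l1 and Rps18 at 3 h, Rpl37 and Rpl7l1 at 12 h, Rpl7 at 48 h, Rpl12 and Rps25 between 3 and 12 h, and Rpl14 and Rpl22l1 between 12 and 24 h. Signals near the floor or the top of the range, and 2 arrays per condition, limit what can be seen.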
